A study of Mus musculus with 8 samples.

Results

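The secretory genes of the bronchiolar club cell were measured in the mRNA of 8 mouse lung tumors. The members are 9 genes, *Scgb1a1*, *Scgb3a1*, *Scgb3a2*, *Cyp2f2*, *Cbr2*, *Bpifa1*, *Muc5b*, *Gabrp* and *Cldn10*, taken by symbol from the 48709 genes of the count table, and all 9 were found. They were chosen by name, as genes that mark these cells. Reads of 8 members were present in all 8 tumors, and *Bpifa1* had reads in 5 of 8. In the *K* model used, the vector LentiCRISPRv2Cre brings Cre recombinase into the airways and so starts tumor growth, in mice of a mixed B6J/129S4vJae background. Per the study's methods, the vector of the 4 *K-Ctrl* tumors carried Cas9 and a guide RNA against *GFP*, and that of the 4 *K-Setd2KO* tumors carried a guide RNA against *Setd2*, a histone methyltransferase gene. Both groups therefore share the *K* background, Cre and Cas9, and the study's methods give no more on age than an upper limit at tumor start for its mice as a whole. The promoter that drives Cre was not given in the sources used here. The design text speaks of flash-frozen tumors and the extraction text of cell lines, and neither names a sort, so in tumor tissue a lower level of a gene can mean fewer cells of a type or less RNA per cell, and these cannot be told apart.

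Club cells are dome-shaped secretory cells of the bronchioles. They release secretoglobins into the airway lining, carry large amounts of cytochrome P450 and carbonyl-reducing enzymes, and can renew themselves and give rise to ciliated cells after injury. In inflamed or injured airways secretory cells can also take on mucous features, with secreted mucins and antimicrobial proteins of the BPI fold family. Alveolar type 2 cells, which make surfactant, lie beyond the bronchioles and are the other epithelial cell commonly studied as a source of lung tumors.

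*Setd2* itself was examined first. It stood at 153, 138, 132 and 138 CPM (read counts relative to a library size scaled by TMM) in *K-Ctrl* tumors 1 to 4 and at 145, 121, 124 and 153 CPM in *K-Setd2KO* tumors 1 to 4. Its level did not separate the groups (log2 fold change −0.05 with an SE of 0.115, adjusted p 0.824 by edgeR), and a guide RNA need not change the amount of mRNA. Total counts ran from 5806599 in *K-Setd2KO* tumor 4 to 21290402 in *K-Ctrl* tumor 3, so that 3 counts were worth 0.513 CPM in the shallowest library and 0.138 CPM in the deepest. The labels do not tie tumors to animals, and p-values measure the spread between these tumors. By *Xist* and Y-linked transcripts 1 of the 4 *K-Ctrl* tumors and 3 of the 4 *K-Setd2KO* tumors came from females.

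All coordinates of the members are GRCm38, and those of *Scgb3a2* stand with its values. *Scgb1a1* (ENSMUSG00000024653.2, chromosome 19, 9083636 to 9087958, minus strand), *Cbr2* (ENSMUSG00000025150.10, chromosome 11, 120729489 to 120732114, minus strand), *Scgb3a1* (ENSMUSG00000064057.12, chromosome 11, 49663610 to 49665118, plus strand), *Bpifa1* (ENSMUSG00000027483.7, chromosome 2, 154142880 to 154149219, plus strand), *Muc5b* (ENSMUSG00000066108.7, chromosome 7, 141839070 to 141873084, plus strand) and *Gabrp* (ENSMUSG00000020159.8, chromosome 11, 33550781 to 33578959, minus strand) overlap no other annotated gene. *Cyp2f2* (ENSMUSG00000052974.8, chromosome 7, 27119909 to 27133660, plus strand) and *Cldn10* (ENSMUSG00000022132.15, chromosome 14, 118787908 to 118875489, plus strand) each overlap 1 gene on the opposite strand. Because the strand setting of the counting was not given, reads of such a partner cannot be told apart from theirs.

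Upstream sequence of 6 of the 9 members was taken from the RefSeq promoter table (GRCm38.p6). That of *Scgb1a1*, *Scgb3a2* and *Muc5b* was not examined. The 250 bases before the start of 3 of these 6 genes are shown, 5′ to 3′ on the gene's own strand, because they stand for the 3 patterns described below: *Gabrp* for the genes with lower values in *K-Setd2KO*, *Bpifa1* for those with higher values and *Scgb3a1* for those with neither. Capitals mark a match to TGTTTNC, a short form of the FOX family site, or to CAAGTG, a short form of the site read by NK2 factors such as NKX2-1, on either strand. The 3 genes and the motifs were picked after the values were known.
*Gabrp*, chr11:33578958-33579207, minus strand: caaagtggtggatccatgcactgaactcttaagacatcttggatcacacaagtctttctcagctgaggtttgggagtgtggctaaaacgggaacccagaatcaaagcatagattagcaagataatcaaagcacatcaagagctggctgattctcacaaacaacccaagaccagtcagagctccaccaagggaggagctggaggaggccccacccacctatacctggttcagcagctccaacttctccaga
*Bpifa1*, chr2:154142630-154142879, plus strand: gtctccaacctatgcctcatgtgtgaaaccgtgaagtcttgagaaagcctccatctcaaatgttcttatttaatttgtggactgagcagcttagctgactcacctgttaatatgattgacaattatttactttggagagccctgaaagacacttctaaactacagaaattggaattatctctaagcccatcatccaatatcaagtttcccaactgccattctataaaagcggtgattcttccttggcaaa
*Scgb3a1*, chr11:49663345-49663594, plus strand: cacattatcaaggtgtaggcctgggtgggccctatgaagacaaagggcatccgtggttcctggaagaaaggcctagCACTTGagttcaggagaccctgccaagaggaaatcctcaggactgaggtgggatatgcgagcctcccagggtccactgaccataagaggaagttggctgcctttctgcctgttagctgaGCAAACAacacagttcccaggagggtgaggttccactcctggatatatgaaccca
The *Scgb3a1* window held 1 FOX match whose first base lies 55 bases before the start and 1 NK2 match 174 bases before it. The *Gabrp* and *Bpifa1* windows held no match to either, nor to the C/EBP form TTGCNNAA. Of 32851 windows of 250 bases in the table, 17.8% held the FOX letters, 11.6% the NK2 letters and 9.56% the C/EBP letters. Among the members whose windows are not printed, *Cbr2* had 1 FOX match 229 bases before its start, *Cyp2f2* 1 NK2 match at 191 bases, and the start sites of *Cldn10* 1 NK2 match each, at 237 and 75 bases. None of these windows held the C/EBP letters. The matches describe letters and are not sites shown to be bound.

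Members were tested for a difference between genotypes with all other genes (edgeR quasi-likelihood test, Benjamini-Hochberg adjusted p under 0.05 over 14929 genes). Of the 8 members with enough counts to be tested, 0 were called, against 12.7% of all genes tested (7.74% called lower and 4.97% called higher). At an unadjusted p under 0.05, *Scgb1a1* was lower and *Muc5b* higher, 2 of 8 members, against 29.9% of all genes. By sign 6 members were lower and 2 higher in *K-Setd2KO*. Their median log2 fold change was −0.78, beside 0.03 for all genes tested. Without the filter on low counts, which leaves out *Bpifa1*, 6 members were lower and 3 higher (median −0.34, beside −0.02 for all genes). The members' median was −1.13 by limma voom (0.01 for all genes) and −1.38 under epithelial scaling, described below (−0.56 for all genes). Calls on members depended on the tool. DESeq2 called *Scgb1a1* (adjusted p 0.0411) and *Muc5b* (adjusted p 0.00898) where it called 21.5% of all genes, and limma voom called *Scgb1a1* (adjusted p 0.0448) and *Gabrp* (adjusted p 0.0305) where it called 11.6%. They also depended on *K-Setd2KO* tumor 4. Without it, edgeR called *Scgb1a1* (log2 fold change −4.28, adjusted p 0.0247) and *Gabrp* (−4.02, adjusted p 0.028) and called 9.03% of all genes. Without *K-Setd2KO* tumor 2 it called *Muc5b* (adjusted p 0.0382), 1 of 8 members where it called 13.6% of all genes. *Gabrp* passed the filter on low counts through its *K-Ctrl* values, where it is high, in the full set and without tumor 4. In the full set *Muc5b* passed that filter through its *K-Setd2KO* values, where it is high.

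**Figure D1:**
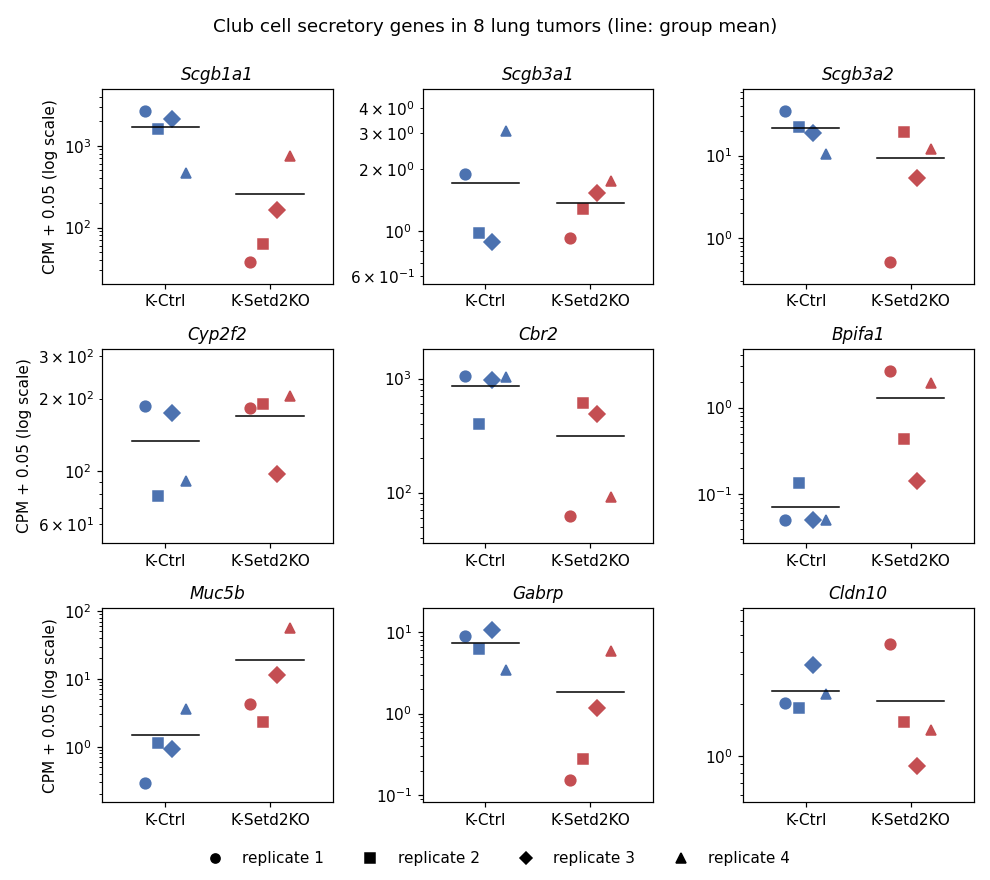
CPM of each member in every tumor, with 0.05 CPM added so that zeros can be drawn, on a log axis; the marker shape gives the replicate number and the black line the group mean. *Scgb1a1* and *Gabrp* are lowest in *K-Setd2KO* tumors 1 to 3 while tumor 4 lies among or near the controls, and *Muc5b* reaches 57.0 CPM in *K-Setd2KO* tumor 4.

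Secretoglobins are small secreted proteins, and *Scgb1a1* (uteroglobin, also called CC10) is the one by which club cells are usually recognized. *Scgb1a1* reached 2631, 1598, 2102 and 458 CPM in *K-Ctrl* tumors 1 to 4 and 38.0, 63.0, 163 and 758 CPM in *K-Setd2KO* tumors 1 to 4. The first 3 tumors of each group were far apart, but *K-Setd2KO* tumor 4 exceeded *K-Ctrl* tumor 4, so the groups overlapped. The means were 1697 ± 928 and 255 ± 339 CPM (SD, n = 4 each), and the log2 fold change was −2.74 with an SE of 0.951 (adjusted p 0.0914 by edgeR). Counts behind the lowest value numbered 740, so the spread is not one of few reads. Within the groups the highest tumor was 5.74 times the lowest in *K-Ctrl* and 19.9 times in *K-Setd2KO*. Among tumors of females the mean log2 CPM of *Scgb1a1* was lower in *K-Setd2KO* by a difference of −3.71 (1 *K-Ctrl* tumor and 3 *K-Setd2KO* tumors), and among those of males the difference was −3.06 (3 and 1 tumors). With sex as a term the log2 fold change was −2.95 with an SE of 1.18 (adjusted p 0.161 by edgeR).

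*Scgb3a2* (ENSMUSG00000038791.14, chromosome 18, 43764289 to 43767399, plus strand, overlapping no other annotated gene), a secretoglobin of bronchiolar secretory cells that acts as a growth and anti-inflammatory factor, stood at 34.4, 22.3, 19.1 and 10.4 CPM in *K-Ctrl*, against 0.462, 19.4, 5.35 and 12.0 CPM in *K-Setd2KO*. *K-Setd2KO* tumor 1, with 9 counts, was far below the rest and tumors 2 and 4 lay within the range of the controls. The log2 fold change was −1.23 (SE 0.809, adjusted p 0.345 by edgeR). It was −0.81 without *K-Setd2KO* tumor 1, −1.95 without *K-Setd2KO* tumor 2 and −2.49 by limma voom (adjusted p 0.121). *Scgb3a1*, which in the mouse is made mainly by secretory cells of the larger airways, was low in every tumor, with 0.831 to 3.03 CPM in *K-Ctrl* and 0.873 to 1.71 CPM in *K-Setd2KO*. Its counts were 10 to 34 per tumor and its log2 fold change was −0.34 (SE 0.499, adjusted p 0.686 by edgeR). The 3 secretoglobins thus had 3 different profiles over the same tumors.

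The detoxifying enzymes were the other abundant members. *Cbr2*, a carbonyl reductase made in club cells and in alveolar type 2 cells, stood at 1057, 399, 971 and 1040.0 CPM in *K-Ctrl*, against 62.4, 610, 491 and 91.7 CPM in *K-Setd2KO*. It was lowest in *K-Setd2KO* tumors 1 and 4, whereas *Scgb1a1* was lowest in tumors 1 and 2 and highest in tumor 4. Its mean went from 867 ± 314 to 314 ± 278 CPM (SD, n = 4 for both; log2 fold change −1.47 with an SE of 0.704, adjusted p 0.201 by edgeR), and the groups overlapped through *K-Ctrl* tumor 2. *Cyp2f2*, the cytochrome P450 that activates naphthalene and makes club cells sensitive to it, had 186, 78.7, 175 and 90.7 CPM in *K-Ctrl*, against 182, 191, 97.4 and 205 CPM in *K-Setd2KO*. Its values interleaved, and the log2 fold change was 0.35 with an SE of 0.331 (adjusted p 0.519 by edgeR). *K-Setd2KO* tumor 1, the lowest tumor for *Scgb1a1*, was thus among the 4 highest for *Cyp2f2*.

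*Gabrp*, the pi subunit of the GABA-A receptor, and *Cldn10*, a claudin that forms ion-selective tight junctions, are membrane genes that mark airway secretory cells. *Gabrp* had 8.93, 6.13, 10.6 and 3.39 CPM in *K-Ctrl*, against 0.103, 0.229, 1.11 and 5.82 CPM in *K-Setd2KO*. Tumors 1 to 3 of the 2 groups did not overlap and *K-Setd2KO* tumor 4 lay above *K-Ctrl* tumor 4, as for *Scgb1a1*. The log2 fold change was −2.18 (SE 1.01, adjusted p 0.187 by edgeR), and the 2 lowest values rest on 2 and 3 counts. *Cldn10* had 1.85 to 3.32 CPM in *K-Ctrl*, against 4.37, 1.53, 0.831 and 1.37 CPM in *K-Setd2KO*, where tumor 1 was the highest of all 8 tumors and the other 3 were below every control. Its log2 fold change was −0.18 (SE 0.519, adjusted p 0.848 by edgeR). Split by sex as for *Scgb1a1*, the difference in mean log2 CPM had opposite signs for *Cyp2f2* (1.29 among tumors of females and −0.56 among those of males), *Cldn10* (0.18 and −1.41) and *Scgb3a1* (0.36 and −0.18), and whether it differs by sex was not tested. With sex as a term the log2 fold change of *Cbr2* was −0.85 (adjusted p 0.523 by edgeR).

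The mucin and the antimicrobial gene ran the other way. *Muc5b*, the gel-forming mucin of airway clearance, had 0.246, 1.09, 0.877 and 3.57 CPM in *K-Ctrl*, against 4.26, 2.29, 11.5 and 57.0 CPM in *K-Setd2KO*. All but 1 of the *K-Setd2KO* tumors were above every control, and *K-Setd2KO* tumor 2 was below *K-Ctrl* tumor 4. The control values rest on 4, 13, 19 and 40 counts. The means were 1.45 ± 1.46 and 18.8 ± 25.8 CPM (SD, n = 4 each), and the log2 fold change was 3.72 with an SE of 1.14 (adjusted p 0.0637 by edgeR). The size rested largely on 1 tumor: without *K-Setd2KO* tumor 4 the log2 fold change was 2.08 (adjusted p 0.152). *Bpifa1*, a secreted lipid-binding protein of the upper airway with antimicrobial activity, gave 0, 1, 0 and 0 reads in *K-Ctrl* and 50, 5, 1 and 11 reads in *K-Setd2KO*. It did not pass the filter on low counts and so was not among the 8 tested members. Its CPM values did not overlap between the groups, but only just, since *K-Ctrl* tumor 2 and *K-Setd2KO* tumor 3 had 1 read each (0.084 and 0.0923 CPM). Without the filter edgeR gave *Bpifa1* an adjusted p of 0.0149 where it called 5.71% of genes, and an unadjusted exact permutation test of log2 CPM, added after the values were seen, gave the smallest p that 4 against 4 tumors allow, 0.0286 (two-sided). Groups that do not overlap always give that p, so it only restates the separation. Among the genes tested, 20.3% did not overlap between the groups.

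Corrected for exon length, the members differed widely in level. Mean RPKM (CPM per kilobase of exon) in *K-Ctrl* was 3566 ± 1949 for *Scgb1a1*, 653 ± 237 for *Cbr2*, 65.4 ± 27.5 for *Cyp2f2*, 24.5 ± 11.3 for *Scgb3a2*, 2.77 ± 1.71 for *Scgb3a1*, 2.15 ± 0.936 for *Gabrp*, 0.904 ± 0.26 for *Cldn10*, 0.0967 ± 0.0976 for *Muc5b* and 0.0136 ± 0.0272 for *Bpifa1* (SD, n = 4). Neighbors in this order did not overlap between *Scgb1a1*, *Cbr2* and *Cyp2f2*, between *Scgb3a2* and *Scgb3a1*, or between *Cldn10* and *Muc5b*, and the other neighbors overlapped. In *K-Setd2KO* the means were 537 ± 713 for *Scgb1a1*, 236 ± 209 for *Cbr2*, 83.4 ± 24.0 for *Cyp2f2*, 10.6 ± 9.32 for *Scgb3a2*, 2.21 ± 0.6 for *Scgb3a1*, 1.25 ± 1.72 for *Muc5b*, 0.797 ± 0.768 for *Bpifa1*, 0.781 ± 0.614 for *Cldn10* and 0.537 ± 0.802 for *Gabrp*. There the only neighbors that did not overlap were *Cyp2f2* and *Scgb3a2*.

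The make-up of the summed RPKM of the 9 members differed from tumor to tumor. *Scgb1a1* gave 85.5%, 90.1%, 83.9% and 53.2% of that sum in *K-Ctrl* and 35.9%, 18.6%, 44.4% and 89.1% in *K-Setd2KO*. It was the leading member in all 4 controls and in *K-Setd2KO* tumor 4, while *Cyp2f2* led in *K-Setd2KO* tumor 1 with 40.5% and *Cbr2* led in tumors 2 and 3 with 64.6% and 48.0%. Among protein-coding genes, *Scgb1a1* ranked 7, 10, 7 and 26 by RPKM in *K-Ctrl* and 534, 318, 75 and 16 in *K-Setd2KO*. The summed RPKM was 6462, 3726, 5262 and 1810 in *K-Ctrl* and 223, 712, 770 and 1786 in *K-Setd2KO*, so the highest *K-Setd2KO* tumor nearly reached the lowest control.

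**Figure D2:**
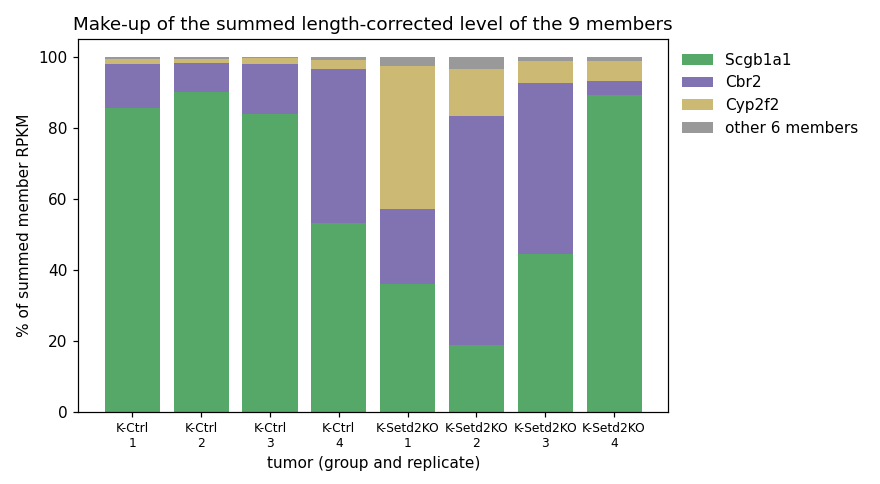
Percent of the summed RPKM of the 9 members that each of *Scgb1a1*, *Cbr2* and *Cyp2f2* contributed in each tumor, with the other 6 members together in gray. *Scgb1a1* fills 83.9% to 90.1% of the bar in *K-Ctrl* tumors 1 to 3 and in *K-Setd2KO* tumor 4 it fills 89.1%.

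To see which members varied together, log2 CPM (prior count 2) was centered on the mean of the 8 tumors and profiles were compared by their root mean square difference, as a description, since all genes of a tumor share its depth and cell content. The closest of the 36 pairs was *Scgb1a1* and *Gabrp* (0.43 log2 units), although their RPKM levels in *K-Ctrl* were 3566 and 2.15. *Cyp2f2* and *Cldn10* followed (0.71), then *Scgb3a1* and *Cyp2f2* (0.84). *Scgb1a1* and *Muc5b* were the furthest apart (3.56), followed by *Scgb1a1* and *Bpifa1* (3.40). Profiles of *Scgb3a1*, *Cyp2f2* and *Cldn10* had an SD over the tumors of 0.53 to 0.65 log2 units, so their closeness reflects small variation, against 2.18 for *Scgb1a1*, 2.09 for *Muc5b* and 1.97 for *Gabrp*.

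The 5 protein-coding genes outside the members whose profile was closest to *Scgb1a1* were *Cfap65* (0.47 log2 units), *Dnah5* (0.57), *Spata18* (0.60), *Rsph4a* (0.60) and *Unc5c* (0.61), where the median gene was 2.21 away. *Cfap65* encodes a protein of motile cilia and flagella, *Dnah5* an outer dynein arm heavy chain and *Rsph4a* a radial spoke protein. *Cfap65* stood at 12.6, 3.87, 7.94 and 2.41 CPM in *K-Ctrl*, against 0, 0.382, 0.554 and 2.91 CPM in *K-Setd2KO*, again with *K-Setd2KO* tumor 4 above *K-Ctrl* tumor 4. *Unc5c* encodes a netrin receptor. The genes closest to *Bpifa1* were *Bex1* (0.51), *Ivl* (0.54), *Grem1* (0.66), *Chn2* (0.69) and *Prr16* (0.80), with a median gene at 1.65. Their log2 fold changes ran from 1.89 to 2.99, a direction that choosing the genes nearest to *Bpifa1* in the same tumors sets, so none is tested here. *Ivl* encodes involucrin of the squamous cell envelope. *Bex1*, an adaptor protein gene, stood at 1.11, 2.69, 1.71 and 1.43 CPM in the controls and at 11.7, 7.80, 2.12 and 17.8 CPM in *K-Setd2KO*, where tumor 3, the lowest for *Bpifa1*, was the only 1 to overlap them.

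**Figure D3:**
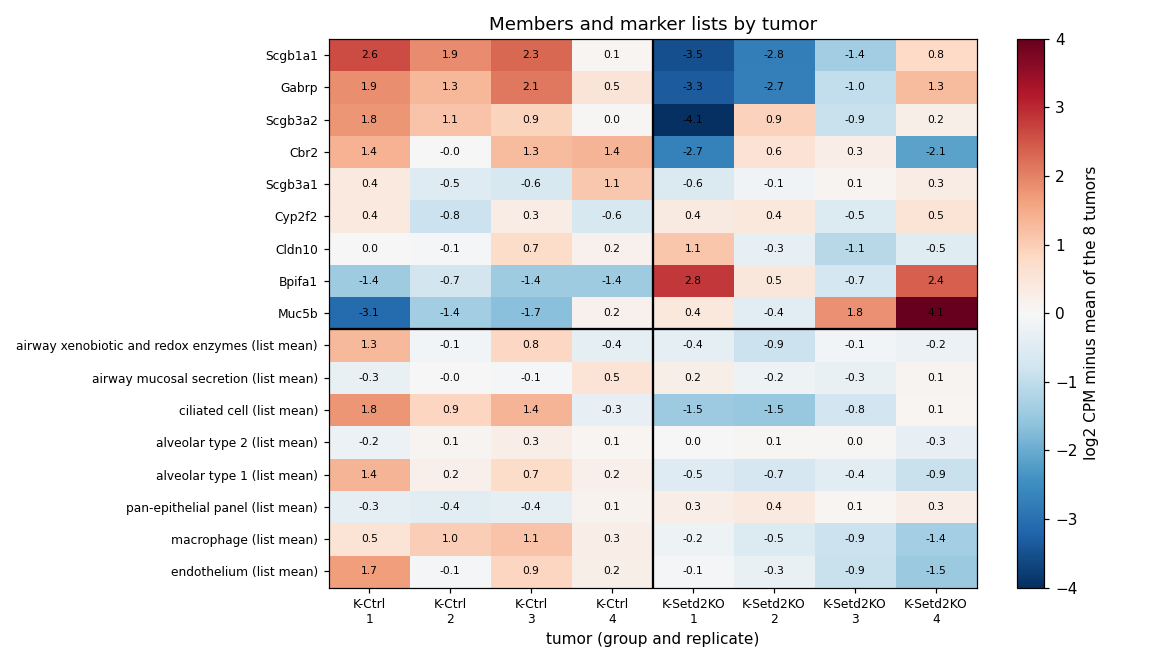
Heat map of log2 CPM minus the mean of the 8 tumors, for the members (above the line) and for the mean of 8 marker lists (below it), with tumors in columns and red for higher values. *Scgb1a1*, *Gabrp* and the ciliated cell list run alike across the tumors. *Muc5b* is highest in *K-Setd2KO* tumor 4, and *Bpifa1* in *K-Setd2KO* tumor 1 (2.82), with tumor 4 next (2.40).

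Genes of other airway cells were read beside the members. Motile cilia are carried by ciliated cells, which line the bronchioles beside club cells. Fitted without the filter on low counts, 23 of 24 ciliated cell genes had lower values in *K-Setd2KO* and 1 a higher value (median log2 fold change −2.21). The higher gene was *Mcidas*, at 0.16 ± 0.159 CPM in the controls against 0.403 ± 0.275 CPM with the *Setd2* guide (SD, n = 4 for both), a gene named after its values were seen. With the filter 21 were tested and 5 called lower, of which *Dnah9*, *Mlf1* and *Fam183b* passed it through their *K-Ctrl* values, since no *K-Setd2KO* tumor had more than 0.513 CPM of them. The count was 9 without *K-Ctrl* tumor 4, 10 without *K-Setd2KO* tumor 4 and 3 without each of *K-Ctrl* tumors 1 to 3 or *K-Setd2KO* tumor 1, and 10 by DESeq2 and 13 under epithelial scaling, described below. The called gene with the smallest p was *Dnah9*, an axonemal dynein heavy chain, at 2.41 to 6.4 CPM in *K-Ctrl*, against 0.205, 0.153, 0.185 and 0.513 CPM in *K-Setd2KO* (log2 fold change −3.96 with an SE of 0.533, adjusted p 0.00623 by edgeR). The others were *Cfap43*, *Tppp3*, *Mlf1* and *Fam183b*. *Foxj1*, the transcription factor that defines ciliated cells and a gene named here after its values were seen, had 5.29, 2.44, 4.02 and 1.07 CPM in *K-Ctrl*, against 0.0514, 0.153, 0.277 and 5.48 CPM in *K-Setd2KO*, with tumor 4 above every control (log2 fold change −1.32, adjusted p 0.496 by edgeR). The summed CPM of the list was 73.2 to 233 in *K-Ctrl* and 31.1 to 64.5 in *K-Setd2KO*. The 7 basal cell genes were too low to be tested, with a summed level of at most 3.03 CPM in any tumor.

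Each member was therefore set against the ciliated list within each tumor, as its log2 CPM minus the list's mean log2 CPM. On the centered log2 scale that mean was 1.75, 0.85, 1.37 and −0.34 in *K-Ctrl*, against −1.45, −1.50, −0.77 and 0.09 in *K-Setd2KO*. A gene of steady level would on average stand higher in *K-Setd2KO* on this ratio. How many of all genes do not overlap on this ratio was not counted. For *Scgb1a1* this ratio was 8.92, 9.10, 8.99 and 8.49 in *K-Ctrl*, a spread far narrower than that of its CPM, and 6.02, 6.80, 7.43 and 8.79 in *K-Setd2KO*. *K-Setd2KO* tumor 4 lay within the range of the controls and the other 3 tumors below it (difference −1.62, exact permutation p 0.0571). Ciliated genes such as *Fam183b*, at 0 CPM in *K-Setd2KO* tumors 1, 2 and 4, hold the list mean up through the prior count. The part of this in the difference was not tested. *Gabrp* differed by −1.08 (exact permutation p 0.2), *Scgb3a2* by −0.09 and *Cbr2* by −0.17. *Cyp2f2* stood higher relative to ciliated genes in every *K-Setd2KO* tumor, at 8.28, 8.39, 6.69 and 6.91 against 5.10, 4.76, 5.40 and 6.15 in *K-Ctrl* (difference 2.21, exact permutation p 0.0286). Its own log2 fold change was 0.35 (adjusted p 0.519 by edgeR), and the fall of the list enters the difference. *Muc5b* (difference 4.80) and *Bpifa1* (difference 4.30) did not overlap either, each with an exact permutation p of 0.0286, the smallest the design allows. The controls had 0, 1, 0 and 0 reads of *Bpifa1*, so their ratios follow the prior count and the list. *Scgb3a1* (1.65) and *Cldn10* (1.41) overlapped. After Benjamini-Hochberg adjustment over these 9 comparisons 0 of 9 passed, but with 4 against 4 tumors any could pass only if at least 6 of 9 reached the smallest p.

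**Figure D4:**
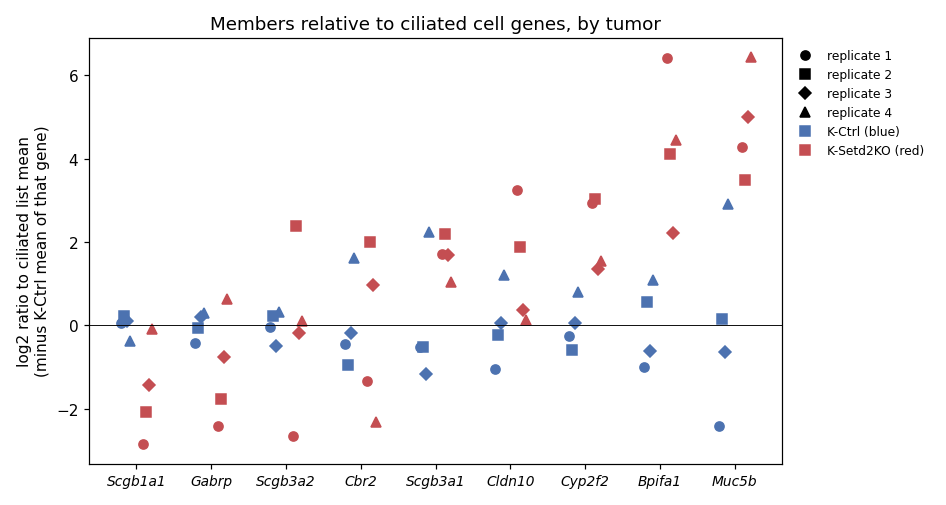
Log2 ratio of each member to the mean of the ciliated cell list in every tumor, shifted so that the *K-Ctrl* mean of each gene is 0; blue is *K-Ctrl*, red is *K-Setd2KO* and the shape gives the replicate. On this ratio *Cyp2f2*, *Bpifa1* and *Muc5b* lie higher in every *K-Setd2KO* tumor than in any control, and *Scgb1a1* lies below the controls in 3 of 4. The ciliated list was itself lower on average in *K-Setd2KO*, which raises the ratio of a gene of steady level.

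The same ratio was taken to alveolar type 2 genes. The 16 alveolar type 2 genes had a median log2 fold change of 0.00, with 2 called higher and 2 called lower. These calls moved with the setting, to 1 higher and 7 lower under epithelial scaling (median −0.57), to 1 higher and 0 lower without *K-Ctrl* tumor 1, 2 or 3 and to 2 higher and 0 lower without *K-Setd2KO* tumor 1. *Sftpc*, the surfactant gene that defines the type and was named after its values were seen, had 25164 ± 5046 CPM in *K-Ctrl*, against 25119 ± 3714 CPM in *K-Setd2KO* (SD, n = 4). *Sftpb*, a second surfactant protein gene, rose from 5590.1 ± 1436 to 11860 ± 467 CPM (adjusted p 0.0122 by edgeR), and *Hc*, complement component C5, fell from 2145 ± 294 to 794 ± 406 CPM (adjusted p 0.0289 by edgeR). Relative to this list *Scgb1a1* differed by −3.33 (exact permutation p 0.0571), *Gabrp* by −2.80 (0.0857) and *Cbr2* by −1.89 (0.0857). *Muc5b* differed by 3.08 (0.0571) and *Bpifa1* by 2.59 (0.0286), and *Cyp2f2* by 0.50 (0.286). None of these 9 comparisons passed adjustment either, with the same limit of the design.

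Other enzymes of airway detoxification, which club cells share with other epithelia, split in direction. Of 18 tested genes in a list of 21, 3 were called higher and 3 lower, with a median log2 fold change of −0.25 that ran from −0.83 under epithelial scaling to 0.12 without *K-Ctrl* tumor 1. The counts were 1 higher and 6 lower under that scaling, 3 and 5 by DESeq2, and between 1 and 3 higher and between 2 and 5 lower when each tumor was left out, with 1 higher in all such fits except those without *K-Setd2KO* tumor 2 or 4. *Cyp4b1*, a cytochrome P450 abundant in lung, fell from 175, 36.4, 104 and 28.4 CPM in *K-Ctrl* to 7.14, 4.97, 5.08 and 5.48 CPM in *K-Setd2KO*, with no overlap (log2 fold change −3.91 with an SE of 0.592, adjusted p 0.00812 by edgeR). *Cyp2b10*, another lung P450, fell from 48.9 ± 30.6 to 5.60 ± 2.39 CPM (adjusted p 0.0117 by edgeR) and *Aldh1a1*, a retinaldehyde dehydrogenase, from 251 ± 186 to 49.4 ± 21.1 CPM (adjusted p 0.0292 by edgeR). Glutathione transferase *Gsta4* rose from 81.9 ± 12.1 to 238 ± 70.7 CPM (SD, n = 4 for both; log2 fold change 1.54 with an SE of 0.233, adjusted p 0.0077 by edgeR), and *Mgst1* and *Selenbp1* were also called higher. *Cyp4b1* and *Cyp2b10* in *K-Setd2KO* tumor 4 were at 5.48 and 6.50 CPM, below every control, so that tumor did not stand among the controls for these P450 genes as it did for *Scgb1a1*. Of the other P450 genes listed, *Cyp2s1* was also below every control in that tumor, at 8.73 CPM. *Cyp1a1* (1.03 CPM) and *Cyp2a5* (0.513 CPM) lay there within the range of the controls.

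In a list of 24 genes of airway mucosal secretion, 16 were tested, of which 3 were called higher and 2 lower (median log2 fold change 0.56). Epithelial scaling gave 2 higher and 4 lower (median 0.02), limma voom 1 and 2 (median 0.16), and leaving out *K-Ctrl* tumor 1, 2 or 3 or *K-Setd2KO* tumor 3 gave 1 and 1. The median fell to 0.19 without *K-Ctrl* tumor 1, 0.21 without *K-Ctrl* tumor 3 and 0.33 without *K-Setd2KO* tumor 2, and was 0.13 with the sex term. *Iyd*, an iodotyrosine deiodinase, rose from 1.02 ± 0.297 to 5.72 ± 1.74 CPM (log2 fold change 2.48 with an SE of 0.358, adjusted p 0.00682 by edgeR), and *Sec14l3*, a lipid-binding gene of airway epithelium, fell from 627, 279, 506 and 232 CPM to 45.1, 89.1, 96.8 and 72.7 CPM (log2 fold change −2.44 with an SE of 0.367, adjusted p 0.00799 by edgeR). *Muc5ac*, the other gel-forming airway mucin, was called higher, with 0.0616, 0.252, 0.508 and 0.982 CPM in *K-Ctrl*, against 2.26, 1.68, 8.58 and 5.48 CPM in *K-Setd2KO* (log2 fold change 3.32 with an SE of 0.784, adjusted p 0.0272 by edgeR). *Muc5ac* and *Iyd* passed the filter on low counts through their *K-Setd2KO* values, where they are high. For *Muc5ac* the order of the *K-Setd2KO* tumors was not that of *Muc5b*, since tumor 3 was highest. *Wfdc2*, a secreted protease inhibitor, was the remaining gene called higher, and *Msln*, mesothelin, the remaining gene called lower. These called genes other than *Iyd* and *Sec14l3* were named after their values were seen.

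Of 18 tested transcription factors of lung epithelium, edgeR called 6 higher and 0 lower (median log2 fold change 0.60). DESeq2 called 8 higher and 2 lower, epithelial scaling gave 2 and 3 (median 0.05), and the fit without *K-Ctrl* tumor 4 gave 7 and 2. Without *K-Setd2KO* tumor 2 it was 6 and 1, without *K-Setd2KO* tumor 3 it was 4 and 1, and without any other tumor 4 and 0. *Elf3*, an epithelial ETS factor, rose from 17.5, 19.5, 24.3 and 28.7 CPM to 59.8, 53.9, 54.2 and 61.3 CPM (log2 fold change 1.35 with an SE of 0.169, adjusted p 0.0056 by edgeR). *Foxa2*, *Cebpa*, *Klf5* and *Ehf* were also called higher. *Foxa2* and *Cebpa*, which act in airway and alveolar differentiation, rose from 46.1 ± 11.5 to 89.5 ± 9.05 CPM and from 312 ± 52.2 to 580.0 ± 35.4 CPM. *Sox2*, the factor of the conducting airways, was near the floor at 0.0892 to 2.34 CPM in *K-Ctrl* and 0 to 0.923 CPM in *K-Setd2KO* (adjusted p 0.273 by edgeR).

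**Figure D5:**
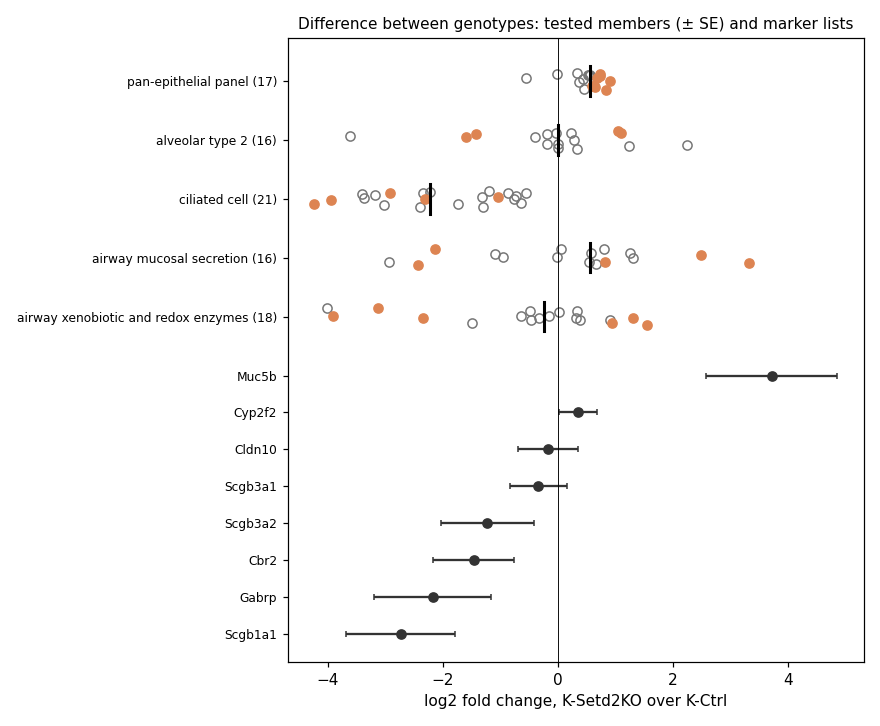
Fitted log2 fold change of *K-Setd2KO* over *K-Ctrl* for the 8 tested members (points with SE bars) and for the genes of 5 lists (number tested in parentheses; filled orange points were called at an adjusted p under 0.05, open points were not, black bars are medians). The 21 ciliated genes that passed the filter lie below 0 (*Mcidas*, which was higher in *K-Setd2KO*, did not pass it), the alveolar type 2 list is centered at 0 and the members reach from −2.74 to 3.72.

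Calls on these other genes were repeated without each tumor in turn. Of the 44 called genes of the lists, all 44 kept their sign and 19 were called in every fit, among them *Cyp4b1*, *Cyp2b10*, *Gsta4*, *Sec14l3*, *Iyd*, *Dnah9*, *Sftpb*, *Elf3*, *Foxa2* and *Cebpa*. *Klf5*, *Mgst1*, *Selenbp1* and *Wfdc2* were called in 1 of 8 fits and *Ehf* in 2 of 8. *Muc5ac* was called in 3 of 8 fits and missed the threshold without *K-Ctrl* tumor 1, 2 or 3 or *K-Setd2KO* tumor 3 or 4 (adjusted p up to 0.0776). *Aldh1a1* missed it without *K-Ctrl* tumor 1 or 3 or *K-Setd2KO* tumor 3 or 4 (up to 0.0758) and *Hc* without *K-Ctrl* tumor 1, 2 or 3 or *K-Setd2KO* tumor 1 or 3 (up to 0.08).

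Marker genes of other cell types were read in the same way. The pan-epithelial panel had 7 of 17 genes called higher and 0 lower (median log2 fold change 0.55, *Ap1m2* leading at an edgeR adjusted p of 0.0152), with a summed level of 2572 to 3919 CPM in *K-Ctrl* and 3535 to 4479 CPM in *K-Setd2KO*. That count was 0 without *K-Ctrl* tumor 3, 2 without *K-Ctrl* tumor 1 or 2, 12 without *K-Ctrl* tumor 4, 3 without *K-Setd2KO* tumor 3 or 4 and 4 without *K-Setd2KO* tumor 1. DESeq2 called 8 higher and 1 lower. Macrophage genes were called lower in 5 of 10 (median −1.63), endothelial genes in 2 of 8 (median −1.42), alveolar type 1 genes in 3 of 12 (median −1.07) and fibroblast genes in 1 of 8 (median −0.84). The endothelial count was 0 without *K-Ctrl* tumor 1 or 3 or *K-Setd2KO* tumor 2, 3 or 4, and 6 by DESeq2. That of alveolar type 1 genes was 5 without *K-Setd2KO* tumor 3, between 2 and 4 without any other tumor and 8 by DESeq2, that of fibroblast genes 0 without *K-Ctrl* tumor 1 or *K-Setd2KO* tumor 4 (median −0.41 without *K-Ctrl* tumor 4), and that of macrophage genes between 4 and 6 in those fits. The summed level was 2161 to 6326 CPM in the controls and 433 to 2639 CPM in *K-Setd2KO* for macrophage genes, 537 to 1972 and 207 to 551 CPM for endothelial genes, and 3512 to 7157 and 2032 to 3716 CPM for alveolar type 1 genes, with *K-Setd2KO* tumor 4 the lowest in each. The leading genes of these lists were *Mrc1*, *Cdh5*, *Rtkn2* and, for fibroblasts, *Pdgfra*. Of the smooth muscle, B and plasma cell, T cell, neutrophil, erythroid and neuroendocrine genes edgeR called 0 of 33, with 14 lower and 1 higher at an unadjusted p under 0.05, limma voom called 0 and DESeq2 called 12 lower and 1 higher. Epithelial scaling, which moves the median of all genes down, called 18 lower, the sex term called 6 lower, and leaving out 1 tumor gave 0 to 2 lower and 0 or 1 higher. The smallest p-values in those lists belonged to *Smtn*, *Cd79a*, *Trac*, *Cxcr2*, *Alas2* and *Syp*, with adjusted p from 0.059 to 0.205. *Reg3g* of the mucosal list was the only listed gene without a read in any tumor. When libraries were scaled to the pan-epithelial panel, the median of all genes moved to −0.56, and relative to that median *Scgb1a1* stood at −2.85 (adjusted p of the unshifted value 0.0522), *Muc5b* at 3.84 (adjusted p 0.0516) and *Cyp2f2* at 0.26 (adjusted p 0.507). That scaling called 0 members where it called 32.9% of all genes, of which 118 were higher and 4790 lower, compared with 742 and 1155 otherwise. The part of these marker differences in the members' values was not tested.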

How the data were processed

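The authors deposited raw counts, whole numbers of reads or fragments per gene with no normalization, for 8 tumors, 4 of each genotype. The submitters' processing notes name STAR 2.5.2b, featureCounts 1.5.0-p1 and GRCm38.p4, and the strand setting was not given in the sources used here. The design text speaks of flash-frozen tumors and the extraction text of cell lines, which was not resolved. Libraries came from a stranded poly(A) kit and paired-end reads.

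Symbols came from GENCODE M21. Genes were filtered with filterByExpr (14929 kept), scaled by TMM and tested with a robust quasi-likelihood fit for genotype alone (edgeR 4.0.16, R 4.3.3), with Benjamini-Hochberg adjustment and a call at 0.05. SE was the absolute log2 fold change over the square root of F. DESeq2, the study's tool (run here as version 1.42.0), and limma voom 3.58.1 were alternatives, as were other scalings and low-count filters, a sex term, a replicate block and leaving out each tumor in turn. Promoter motifs were chosen after values were seen. Ratios to a list used log2 CPM with a prior count of 2 and a two-sided exact permutation test over 70 assignments. The fit was tested on simulated data. Depth limits are counting error only.

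The members and the lists were chosen with earlier results of these data known. Named were all members, *Setd2*, the called higher and lower gene of smallest p in each list (else the gene of smallest p), and the 5 nearest profiles to *Scgb1a1* and *Bpifa1*, and any other gene was named after its values were seen. No 2 libraries of the same group were copies of each other, and pairs between the groups were not checked. Not every gene behind the counts is reported here by name.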

Additional observations from a re-analysis of the deposited data

Results flagged for a closer look

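Within groups of 4 tumors, a value was singled out when its gap to the nearest of the others divided by the group's whole range exceeded Dixon's 95% critical value, which chance alone does for about 1 in 20 groups. Of 110 groups tested (members, list means and named genes, by genotype) 12 were singled out, where 5.5 would be for independent groups of normally distributed values. These groups share tumors and most hold CPM on the raw scale, so no excess is read from this. A group with reads in only 1 tumor, as for *Bpifa1* in *K-Ctrl*, is always singled out.

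Among the members, *Cbr2* in *K-Ctrl* tumor 2 was low at 399 CPM, *Bpifa1* in *K-Ctrl* tumor 2 was the only control with a read, at 0.084 CPM, and *Muc5b* in *K-Setd2KO* tumor 4 was high at 57.0 CPM. *K-Setd2KO* tumor 4 also stood apart in the mean of the alveolar type 2 list, at −0.32 on the centered log2 scale, in *Dnah9* at 0.513 CPM and in *Unc5c* at 1.20 CPM. In *K-Ctrl*, the pan-epithelial panel of tumor 4 stood at 0.13 and the neuroendocrine list of tumor 1 at 0.90, both on the centered log2 scale, *Pdgfra* of tumor 1 at 176 CPM and *Trac* of tumor 2 at 14.8 CPM. In *K-Setd2KO*, *Trac* of tumor 1 stood at 4.06 CPM and *Cd79a* of tumor 2 at 4.74 CPM. No cause of these values was tested.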

How the results depend on the processing

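The count of members called was 0 with edgeR and stayed 0 under size-factor (RLE), upper-quartile and epithelial scaling, under a minimum of 10 counts in every tumor and with sex as a term. It was 1 without a filter (*Bpifa1*), 1 with the replicate number as a block (*Muc5b*, adjusted p 0.0227), 2 by DESeq2, 2 by limma voom, and 0 to 2 when each tumor was left out in turn. The replicate numbers are not known to pair tumors, and same-numbered tumors deviated with correlations of −0.07, −0.03, 0.19 and −0.02. Over all genes 4908 were called under epithelial scaling, 3194 by DESeq2, 1341 with the block, 1237 with the sex term and 763 (without *K-Ctrl* tumor 3) to 2058 (without *K-Setd2KO* tumor 2) when 1 tumor was left out. Of the 207 genes of the other lists, 44 were called, 88 under epithelial scaling, 83 by DESeq2 and 20 to 56 when 1 tumor was left out. In the lists where edgeR called 0 of 33 genes, the block called 7. The comparisons relative to ciliated and to alveolar type 2 genes gave 0 of 9 after adjustment under every alternative run, which says nothing about their stability, since 4 against 4 tumors need 6 of 9 at the smallest p for any to pass and leaving out a tumor raises that p to 0.0571.

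Some directions turned. The log2 fold change of *Scgb3a1* was 0.016 with the sex term and ran from −0.57 to 0.11 when 1 tumor was left out, that of *Cldn10* ran from −0.92 to 0.081, and that of *Cyp2f2* was −0.30 under epithelial scaling, where it stood 0.26 above the median of all genes and so did not turn relative to that median. Relative to ciliated genes, *Scgb3a2* stood at 0.23 and *Cbr2* at 0.23 with a prior count of 0.5, and they ran from −0.91 to 0.77 and from −0.90 to 0.54 when 1 tumor was left out. Relative to alveolar type 2 genes, *Scgb3a1* ran from −0.38 to 0.26 and *Cldn10* from −0.72 to 0.022. The cause was not tested. Depth limits the values with few counts, among them those of *Bpifa1* (0 to 50), *Scgb3a1* (10 to 34), *Muc5b* in *K-Ctrl* (4 to 40), *Cldn10* in *K-Setd2KO* tumors 3 and 4 (9 and 8), *Scgb3a2* in *K-Setd2KO* tumor 1 (9) and *Gabrp* in *K-Setd2KO* tumors 1 to 3 (2, 3 and 12).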
